A study of Rattus norvegicus with 10 samples.

Results

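The aminoacyl-tRNA synthetase genes were followed through an array study of electrically pulsed rat heart muscle cells. Members were the probe sets whose single gene symbol is that of a tRNA synthetase, with the brightest probe set kept for each gene. The rule found 51 probe sets of 33 genes, of 31042 probe sets besides the array's own controls. All 33 genes were above the filter on dim probe sets and were tested among 18393 genes and unnamed probe sets. Of the 33, 19 were classed as cytosolic (symbols with no number or 1, Farsa and Farsb) and 13 as mitochondrial (symbols ending in 2). The class follows the symbol alone, which does not tell whether a gene classed as cytosolic also serves mitochondria. Tars3, a further threonyl enzyme, was kept apart.

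The cells were primary cultures of ventricular cardiomyocytes from Lewis rats aged 0 to 3 days after birth, cultured for 3 days after a recovery phase. There were 3 nonpulsed arrays, 4 pulsed arrays and 3 arrays of cells pulsed with blebbistatin. Pulsing was at 1 Hz and 2 V/cm, and blebbistatin, an inhibitor of the myosin II motor that stops contraction, was given at 10 µmol/L. No array held nonpulsed cells with blebbistatin. Each array held RNA of 2 duplicate experiments pooled in equal parts. Arrays were grouped into 4 culture series by the date in each sample title, taken here as the round of cell isolation. The titles do not say what the date marks. Series 1 covered nonpulsed and pulsed cells, series 2 and series 3 all 3 groups, and series 4 both pulsed groups. The series' design text gives 3 arrays per treatment, whereas the labels give 4 pulsed arrays, and all 10 arrays were used.

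Aminoacyl-tRNA synthetases join each amino acid to its tRNA, the step that supplies charged tRNA to the ribosome. Most amino acids have a cytosolic enzyme and a separate mitochondrial enzyme, both encoded in the nucleus. The mitochondrial enzymes serve the synthesis of the respiratory chain subunits that mitochondrial DNA encodes, on which beating heart muscle depends. Several cytosolic enzymes sit in a multisynthetase complex with scaffold proteins, and many cytosolic synthetase genes are known targets of ATF4, the transcription factor of the integrated stress response.

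Promoter sequences are shown because the changes of cytosolic members with and without an ATF4 element are set side by side further on. Windows of 300 bases, from 250 bases before to 50 bases after the start, were available from RefSeq (build GRCr8) for 31 of the 33 genes, all but Gars1 and Rars1. The motif of the ATF4 element, TGATGNAA, was searched on both strands and was present in 7 of 17 cytosolic windows and in 0 of 13 mitochondrial windows. Capitals mark each match below. Cytosolic Iars1, Mars1, Aars1 and Tars1 and the mitochondrial Yars2 and Vars2, which have no match, are shown over the 120 bases before the start. Cars1 and Yars1 are shown over 30 bases after the start, where their matches lie. Each sequence reads 5′ to 3′ in the direction of its gene. The positions are chr17:15193653-15193772 (minus strand) for Iars1, chr7:65023754-65023873 (minus) for Mars1, chr19:55908362-55908481 (plus) for Aars1 and chr2:62114803-62114922 (minus) for Tars1. They are chr11:98142293-98142412 (minus) for Yars2, chr20:3081788-3081907 (plus) for Vars2, chr1:208225334-208225363 (minus) for Cars1 and chr5:146820183-146820212 (plus) for Yars1.
Iars1: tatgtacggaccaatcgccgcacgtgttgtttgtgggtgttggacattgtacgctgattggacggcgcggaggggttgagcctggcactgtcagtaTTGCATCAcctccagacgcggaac
Mars1: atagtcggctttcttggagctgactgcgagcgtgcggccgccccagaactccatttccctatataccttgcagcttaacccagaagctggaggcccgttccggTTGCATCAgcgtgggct
Aars1: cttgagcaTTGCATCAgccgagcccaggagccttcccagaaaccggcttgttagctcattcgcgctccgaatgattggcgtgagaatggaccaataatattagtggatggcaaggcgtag
Tars1: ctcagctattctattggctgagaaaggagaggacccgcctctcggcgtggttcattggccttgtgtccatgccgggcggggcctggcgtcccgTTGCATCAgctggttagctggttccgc
Yars2: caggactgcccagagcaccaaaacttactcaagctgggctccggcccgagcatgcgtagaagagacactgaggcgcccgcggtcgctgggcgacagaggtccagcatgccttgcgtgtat
Vars2: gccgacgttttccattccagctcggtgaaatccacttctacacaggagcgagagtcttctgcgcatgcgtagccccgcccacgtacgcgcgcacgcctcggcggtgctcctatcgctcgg
Cars1: cggcgccgcggTTGCATCAgattctggaaa
Yars1: cggagctacgagctcagcTGATGCAAcctg

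The array values are log2 signals per probe set. They compare one gene between arrays and do not rank different genes, since each probe set has its own brightness. A change is the fitted difference between 2 groups on the log2 scale, from a limma model of all 10 arrays with the culture series as a block, given with its standard error (SE). Fitted changes are adjusted for the series and so differ from the differences of the group means. The gap had a median of 0.03 over the 33 genes in each comparison and reached 0.12 (pulsing), 0.10 (blebbistatin in pulsed cells) and 0.19 (blebbistatin against nonpulsed cells). P-values were adjusted by Benjamini-Hochberg over all 18393 tested, with 0.05 as the threshold. The 3 comparisons share groups and are not independent of each other. The median log2 signal lay between 6.57 and 6.78 on the 10 arrays, and none of the 33 genes lay at an array's lowest level on any array.

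Blebbistatin was first compared within pulsed cells, where 32 of 33 synthetase genes had a positive fitted change, against 55.7% of all tested. The median change was 0.21 over the 33 genes, 0.15 over the 19 cytosolic genes and 0.21 over the 13 mitochondrial genes, against 0.02 over all tested. Every mitochondrial gene and 18 of 19 cytosolic genes had a positive change, and Farsa was the exception at -0.01. These directions were the same under quantile normalization and under median centring of the arrays. No single synthetase gene passed limma's adjusted threshold, which 0.0163% of all tested passed, with 0.167 as the smallest adjusted p among the 33. Counted without adjustment (p under 0.05), 10 of 33 were higher with blebbistatin, against 6.23% of all tested, and 0 were lower, against 5.60%.

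Within single culture series, a positive difference was found for 30 (series 2), 30 (series 3) and 28 (series 4) of the 33 genes. The size was less even. The cytosolic median was 0.26, 0.11 and 0.08 in series 2, 3 and 4, with 19, 18 and 14 of 19 positive, and the mitochondrial median was 0.23, 0.26 and 0.37. In all 3 series together, 23 of 33 were higher in every series, against 24.1% of all tested, and 0 were lower in every series, against 15.1%. All 3 blebbistatin arrays lay above all 4 pulsed arrays for 6 of the 33 genes, against 6.34% of all tested. When single arrays or series were left out, 29 to 33 genes had a positive change. The count of 10 higher genes at an unadjusted p under 0.05 became 14, 7, 4 and 6 without series 1, 2, 3 and 4. The share of all tested, 6.23% in the main fit, became 9.84%, 3.1%, 3.69% and 4.13%. The count was 5 without the blebbistatin array of series 3 (5.69% of all tested) and 6 without the pulsed array of series 2 (3.44%). It was also 6 without the pulsed or the blebbistatin array of series 4 (4.13% each).

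**Figure D1:**
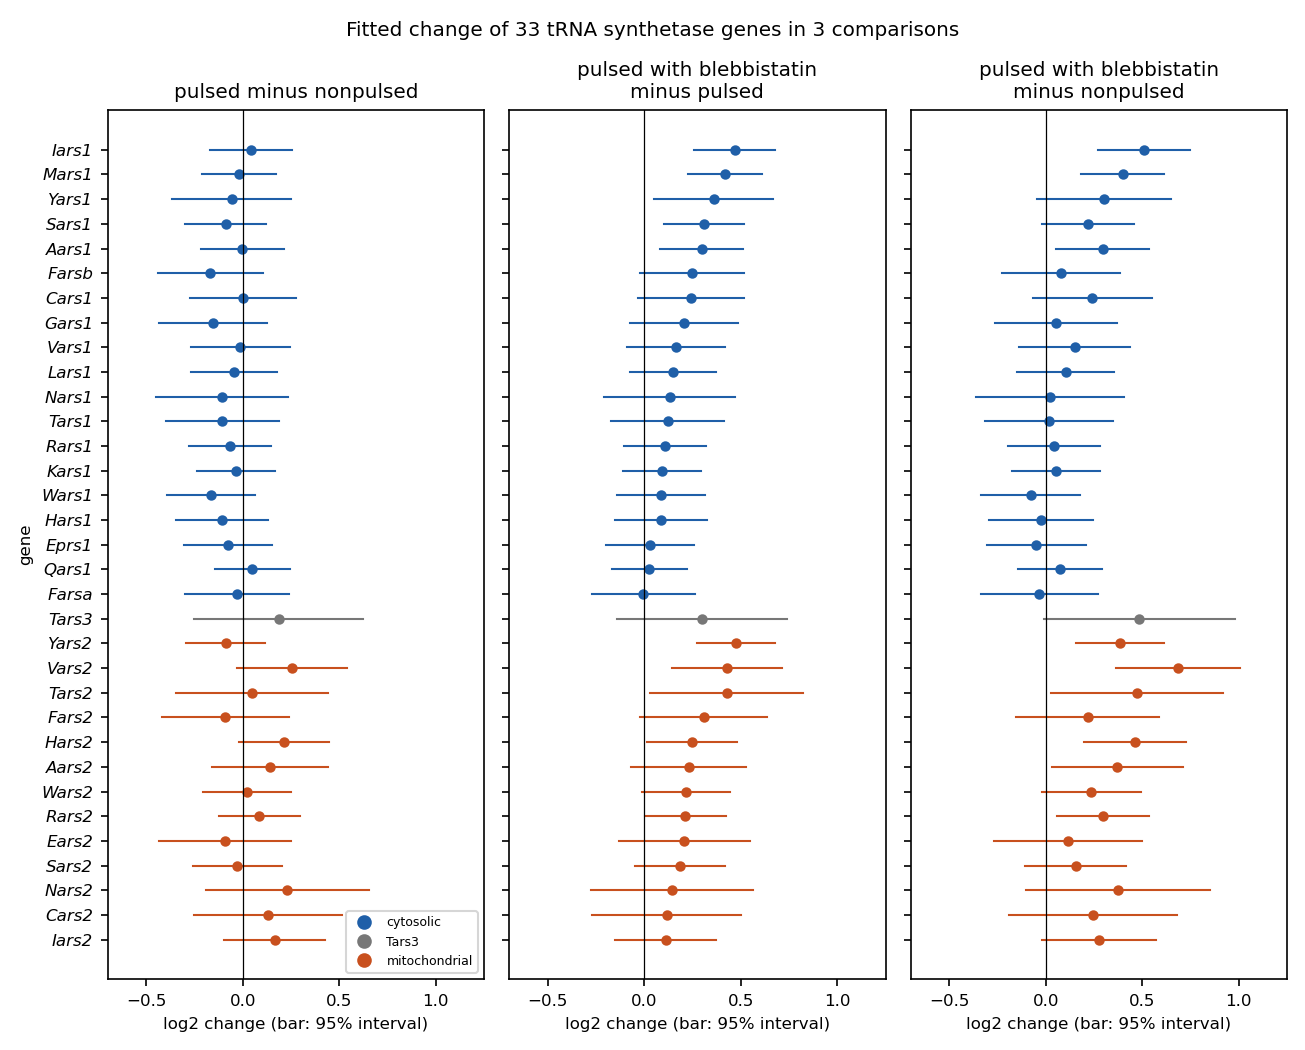
Fitted log2 change of the 33 synthetase genes (points) with 95% intervals (bars) in the 3 comparisons, cytosolic genes in blue, mitochondrial genes in orange and Tars3 in grey. In the middle panel 32 of 33 points lie above 0, whereas in the left panel 16 of 19 cytosolic points lie below 0 and 9 of 13 mitochondrial points above it.

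Among the cytosolic enzymes, Iars1, the isoleucyl enzyme of the multisynthetase complex (probe set 1376418_a_at), had the largest change with blebbistatin. Its log2 signal was 10.12, 10.22, 10.29 and 10.22 in the pulsed arrays of series 1 to 4 and 10.76, 10.77 and 10.55 in the blebbistatin arrays of series 2 to 4. In nonpulsed cells it was 10.18, 10.14 and 10.25 in series 1 to 3. All blebbistatin arrays lay above all others, and the pulsed and nonpulsed arrays overlapped. The change was 0.47 (SE 0.09, 1.38-fold, limma adjusted p = 0.197).

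Mars1, the methionyl enzyme (probe set 1389733_at), also belongs to that complex. It stood at 9.66, 9.73, 9.75 and 9.76 in the pulsed arrays and at 10.17, 10.13 and 10.19 in the blebbistatin arrays. Nonpulsed arrays gave 9.72, 9.76 and 9.72. The arrays of each group were close together (SD 0.05 over 4 pulsed and 0.03 over 3 blebbistatin arrays), and the blebbistatin arrays lay apart from both other groups. The change with blebbistatin was 0.42 (SE 0.08, 1.34-fold, limma adjusted p = 0.197).

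Sars1, the seryl enzyme, and Yars1, the tyrosyl enzyme, followed. Sars1 gave 10.34, 10.55, 10.63 and 10.92 in pulsed cells, 10.81, 11.01 and 11.16 with blebbistatin and 10.54, 10.62 and 10.66 in nonpulsed cells. The pulsed array of series 4 lay above the blebbistatin array of series 2, so the groups overlapped, while each series held a higher blebbistatin value (change 0.31, SE 0.09, limma adjusted p = 0.311). Yars1 gave 9.84, 9.91, 10.18 and 10.04 in pulsed cells, 10.52, 10.39 and 10.15 with blebbistatin and 10.17, 10.02 and 10.02 in nonpulsed cells. Its groups overlapped at the blebbistatin array of series 4 (change 0.36, SE 0.13, limma adjusted p = 0.371). Aars1, the alanyl enzyme, was the other cytosolic gene with an unadjusted p under 0.05, with a change of 0.30 (SE 0.09).

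The enzymes of the multisynthetase complex did not share one size of change. Its 7 members on the array (Eprs1, Iars1, Lars1, Mars1, Qars1, Rars1 and Kars1) had positive changes from 0.03 to 0.47, with a median of 0.11. The 12 cytosolic enzymes outside the complex had a median of 0.18, with 11 positive. Qars1 and Eprs1, which charge glutamine and glutamate and proline, had changes of 0.03 each, beside the 0.47 of Iars1 and the 0.42 of Mars1. Further probe sets of Eprs1 above the filter gave 0.20 and 0.10, so its value depends on the probe set. The scaffold genes Aimp1, Aimp2 and Eef1e1 were positive in 3 of 3, with a median of 0.22, and 0 of 3 passed limma's adjusted threshold.

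Among the mitochondrial enzymes, Yars2, the tyrosyl enzyme (probe set 1393033_at), had the smallest p of all 33 genes with blebbistatin. Its log2 signal was 7.69, 7.95, 8.19 and 7.55 in pulsed arrays of series 1 to 4, 8.53, 8.63 and 7.98 in blebbistatin arrays of series 2 to 4, and 7.75, 8.04 and 8.33 in nonpulsed arrays of series 1 to 3. The series differed widely, with series 3 high and series 4 low, so the groups overlapped, while within each series the blebbistatin array was the higher. The change was 0.47 (SE 0.09, 1.39-fold, limma adjusted p = 0.167).

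Vars2, the mitochondrial valyl enzyme (probe set 1389689_at), showed a step at both treatments. It gave 6.60, 6.22 and 6.62 in nonpulsed arrays, 7.09, 6.53, 6.71 and 6.91 in pulsed arrays and 6.77, 7.19 and 7.60 in blebbistatin arrays. In every series the pulsed array was above the nonpulsed one and the blebbistatin array above the pulsed one, although the groups overlapped across series. The change with blebbistatin was 0.43 (SE 0.12, limma adjusted p = 0.308), and with pulsing alone 0.26 (SE 0.12, limma adjusted p = 0.572). Its cytosolic partner Vars1 gave 8.64, 8.79 and 8.74 in nonpulsed, 8.78, 8.56, 8.74 and 8.77 in pulsed and 9.00, 8.80 and 8.85 in blebbistatin arrays. All blebbistatin values of Vars1 lay above all others, by a small margin, with a change of 0.16 (SE 0.11, limma adjusted p = 0.597).

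Hars2, the mitochondrial histidyl enzyme, had the same order of groups. It gave 7.65, 8.06 and 8.13 in nonpulsed, 8.08, 8.17, 8.30 and 7.80 in pulsed and 8.41, 8.55 and 8.17 in blebbistatin arrays. The groups overlapped, and within each series each step was upward (change with blebbistatin 0.25, SE 0.10, limma adjusted p = 0.398). Tars2, the mitochondrial threonyl enzyme, and Rars2, the arginyl enzyme, had changes of 0.43 (SE 0.17) and 0.21 (SE 0.09) with blebbistatin, both at an unadjusted p under 0.05. Tars3 had a change of 0.30 (SE 0.19).

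**Figure D2:**
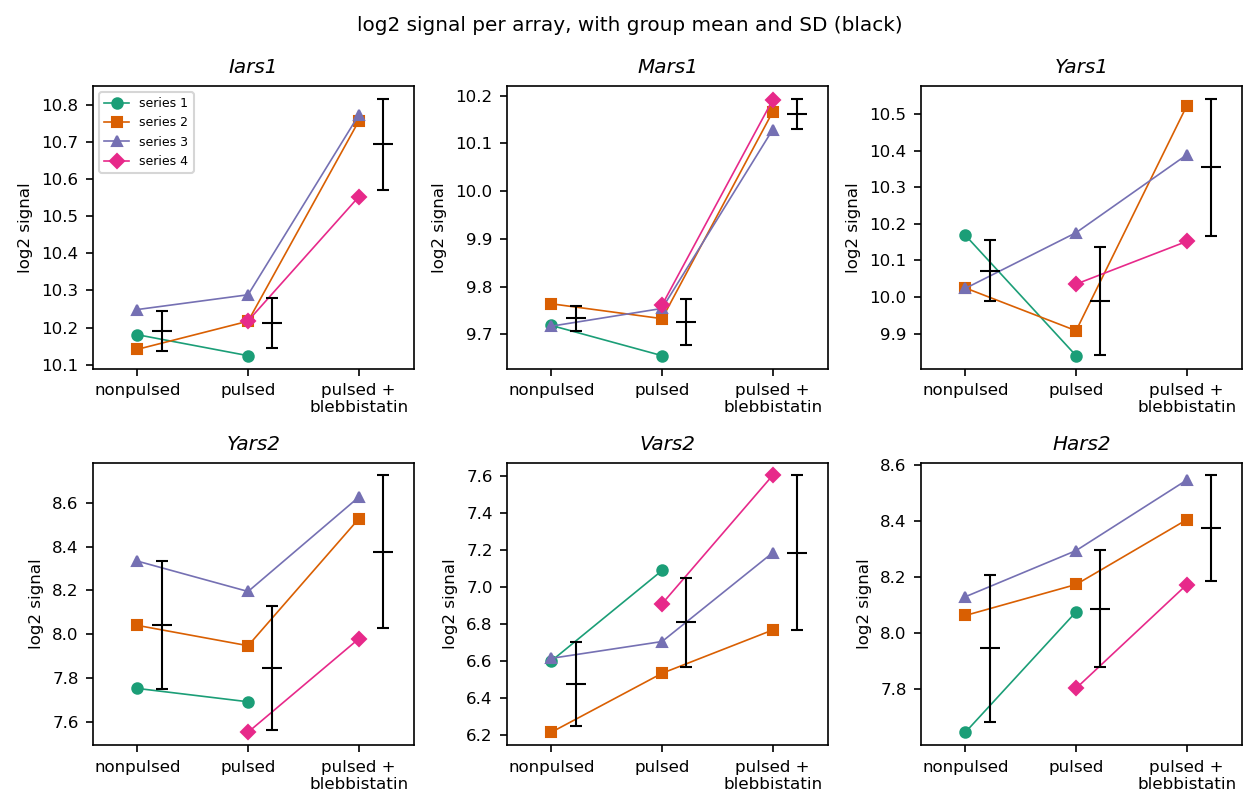
log2 signal of 6 synthetase genes on each array (points, joined within a culture series), with the group mean and SD in black for 3 nonpulsed, 4 pulsed and 3 blebbistatin arrays. Mars1 lies between 9.66 and 9.76 in all nonpulsed and pulsed arrays and between 10.13 and 10.19 with blebbistatin, whereas Yars2 differs more between series than between groups.

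Pulsing alone gave a different picture. Against nonpulsed cells, 16 of 19 cytosolic genes had a negative fitted change and 9 of 13 mitochondrial genes a positive one, where 62.0% of all tested were positive. The medians were small, at -0.06 for the cytosolic, 0.09 for the mitochondrial genes and 0.05 for all tested. No synthetase gene passed limma's adjusted threshold, nor did any gene on the array (0% of all tested), and 0 of 33 had an unadjusted p under 0.05, against 9.10% of all tested (7.83% higher and 1.27% lower). For 0 of 33 did all 4 pulsed arrays lie above all 3 nonpulsed arrays, against 6.30% of all tested. The cytosolic genes with a positive change numbered 3 here, 2 under quantile normalization and 0 under median centring, and the mitochondrial genes 9, 7 and 7.

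The split between the 2 classes was not alike in the 3 series that held both groups. In series 1 the median difference was -0.20 for cytosolic and 0.39 for mitochondrial genes. In series 2 it was -0.07 and -0.08, and in series 3 it was 0.03 and 0.08. Series 1 thus held most of the split, and without it 9 of 19 cytosolic and 6 of 13 mitochondrial genes had a positive change. Genes higher in every series numbered 4, all mitochondrial, against 24.7% of all tested, and 7 were lower in every series (6 cytosolic), against 9.67%.

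**Figure D3:**
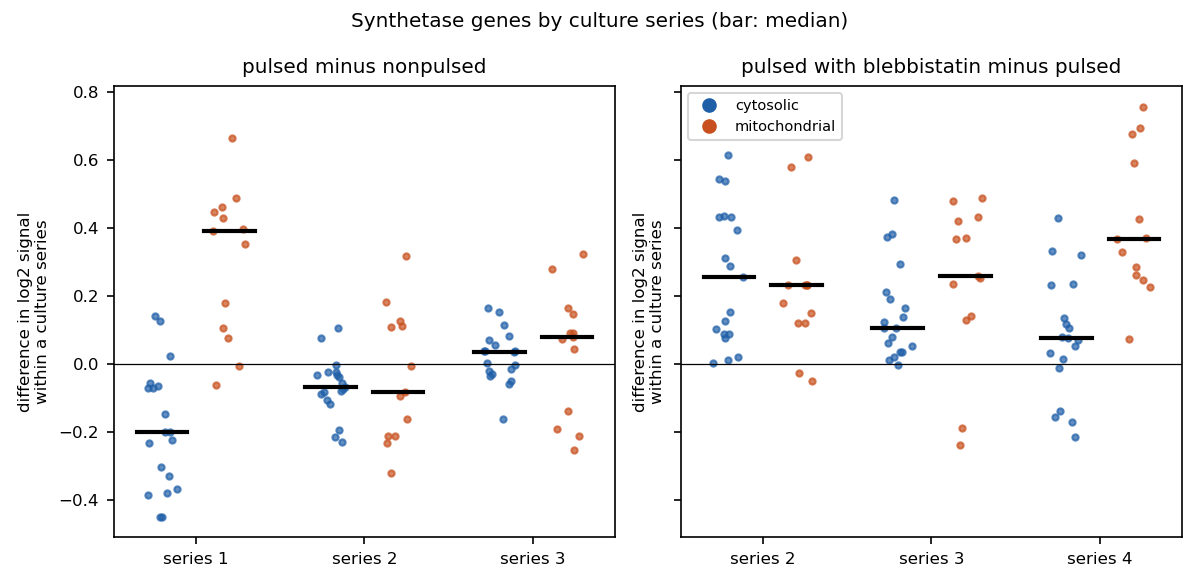
Difference in log2 signal within a culture series for each synthetase gene (points) with the class median (bar), for pulsing (left) and for blebbistatin in pulsed cells (right). On the left the class medians are -0.20 and 0.39 in series 1 and close to 0 in series 2 and 3. On the right all medians are above 0, from 0.08 to 0.26 for cytosolic and from 0.23 to 0.37 for mitochondrial genes.

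The 5 synthetase genes with the smallest p under pulsing were Hars2 (0.21, SE 0.10), Vars2, Wars1, Iars2 and Farsb, with limma adjusted p-values of 0.563 or more. Wars1, the cytosolic tryptophanyl enzyme, gave 10.07, 9.99 and 10.31 in nonpulsed, 9.69, 9.88, 10.29 and 10.14 in pulsed and 9.97, 10.30 and 10.20 in blebbistatin arrays. It was lower with pulsing in all 3 series, by a fitted -0.17 (SE 0.10), mostly in series 1. Wars2, its mitochondrial partner, gave 6.57, 6.71 and 6.98 in nonpulsed, 6.75, 6.55, 7.06 and 6.90 in pulsed and 6.85, 7.19 and 7.19 in blebbistatin arrays, with a change of 0.02 with pulsing and 0.21 with blebbistatin.

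Iars2, the mitochondrial isoleucyl enzyme, gave 8.32, 8.45 and 8.74 in nonpulsed, 8.72, 8.57, 8.79 and 8.82 in pulsed and 8.52, 9.02 and 9.08 in blebbistatin arrays. It was higher with pulsing in all 3 series (0.16, SE 0.11), whereas its change with blebbistatin, 0.11, was the smallest of the 13 mitochondrial genes. Farsb, a subunit of the cytosolic phenylalanyl enzyme, gave 9.59, 9.64 and 9.47 in nonpulsed, 9.20, 9.55, 9.47 and 8.97 in pulsed and 9.57, 9.76 and 9.29 in blebbistatin arrays. Its change was -0.17 (SE 0.12) with pulsing, again mostly in series 1, and 0.25 (SE 0.12) with blebbistatin. The single mitochondrial phenylalanyl enzyme, Fars2, gave 7.40, 7.94 and 7.94 in nonpulsed, 7.51, 7.93, 7.75 and 7.48 in pulsed and 7.90, 8.12 and 8.16 in blebbistatin arrays, with a change of 0.31 (SE 0.14) with blebbistatin. The other subunit gene of the cytosolic enzyme, Farsa, had changes near 0 in both comparisons (-0.03 and -0.01).

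Blebbistatin with pulsing against nonpulsed cells could be compared within 2 series. The fitted changes were positive in 29 of 33 genes, against 61.4% of all tested, with medians of 0.07 for the 19 cytosolic genes, 0.30 for the 13 mitochondrial genes and 0.07 for all tested. Within series 2 the cytosolic and mitochondrial medians were 0.13 and 0.15, and within series 3 they were 0.12 and 0.28. Without the nonpulsed or the pulsed array of series 1 the fitted medians were 0.12 and 0.25, and without the nonpulsed array of series 3 they were 0.03 and 0.31. Of 12 pairs of enzymes for one amino acid, the fitted mitochondrial change was the larger in 10, by a median of 0.21. Within the series, the mitochondrial difference was the larger in both series in 5 pairs and the smaller in both in 5. For alanine, cysteine and tyrosine the fit had the mitochondrial change larger and both series had it smaller. All 13 mitochondrial genes were positive under each scaling. The cytosolic genes were positive in 15 of 19, in 12 under quantile normalization and in 8 under median centring, where their median was -0.01. No synthetase gene passed limma's adjusted threshold, which 0.343% of all tested passed, while 9 were higher with an unadjusted p under 0.05, against 15.8%, and 0 lower, against 6.80%. In both series 25 of 33 were higher, against 39.1%, and 1 was lower, against 25.2%. An adjusted p under 0.1 in limma was reached by 5, against 5.44% of all tested, and these were Iars1 (0.51, SE 0.10, adjusted p = 0.0771), Vars2 (0.69, SE 0.14, 0.0779), Mars1 (0.40, SE 0.09, 0.0880), Hars2 (0.46, SE 0.11, 0.0936) and Yars2 (0.38, SE 0.10, 0.0986). With the series as a random instead of a fixed block, Iars1, Mars1 and Vars2 passed, with limma adjusted p-values of 0.0235, 0.0280 and 0.0411, in a fit that called 5.55% of all tested. All 3 blebbistatin arrays lay above all 3 nonpulsed arrays for 15 of 33 genes, against 18.1% of all tested.

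For 12 amino acids a single cytosolic gene was paired with the mitochondrial gene. Phenylalanine also had both enzymes on the array (Farsa, Farsb and Fars2) but was left out of the pairs. With blebbistatin against pulsing alone, the mitochondrial change was the larger in 8 of 12, by a median of 0.11 on the log2 scale. The order of the class medians turned without the pulsed or the blebbistatin array of series 4, to 0.21 for cytosolic and 0.18 for mitochondrial genes. The order held in every series for the pairs of glutamate, histidine and tryptophan. It was the reverse in every series for isoleucine (Iars1 0.47, Iars2 0.11) and serine (Sars1 0.31, Sars2 0.18). Sars2, the mitochondrial seryl enzyme, gave 6.76, 6.89 and 6.56 in nonpulsed, 6.76, 6.68, 6.64 and 6.92 in pulsed and 6.92, 6.90 and 6.99 in blebbistatin arrays. Tyrosine was the amino acid for which both enzymes had large changes (Yars1 0.36, Yars2 0.47). With pulsing alone the mitochondrial change was the larger in 10 of 12 pairs, by a median of 0.15, and in every series for 4 of them (histidine, isoleucine, arginine and valine). The smallest of these series differences was only 0.006 for histidine and 0.004 for isoleucine.

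**Figure D4:**
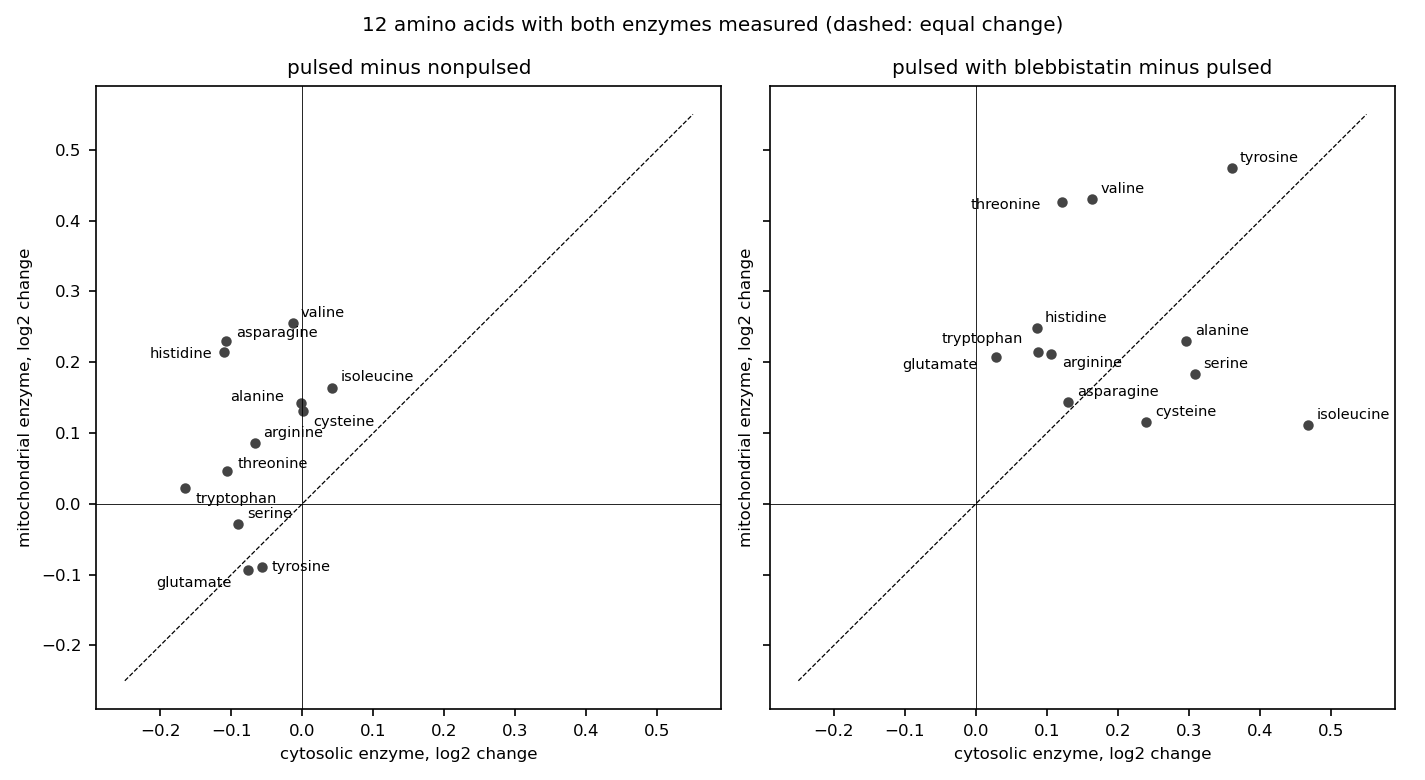
Fitted log2 change of the mitochondrial enzyme against that of the cytosolic enzyme for the same amino acid, for pulsing (left) and for blebbistatin in pulsed cells (right). Points above the dashed line have the larger mitochondrial change, 10 of 12 on the left and 8 of 12 on the right, where isoleucine lies farthest below the line. Phenylalanine, also measured for both enzymes, is not drawn.

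Hars1 and Hars2 lie head to head on chromosome 18 of GRCr8, on opposite strands, with 143 bases between their starts. Their promoter windows share the 243 bases at chr18:28672663-28672905. Hars1, the cytosolic enzyme, gave 9.02, 8.97 and 9.11 in nonpulsed, 8.71, 9.07, 8.95 and 8.90 in pulsed and 9.09, 9.05 and 8.94 in blebbistatin arrays. The groups of Hars1 overlapped in each comparison. Against nonpulsed cells, the change with blebbistatin was -0.02 (SE 0.11) for Hars1 and 0.46 (SE 0.11) for Hars2. With pulsing alone it was -0.11 (SE 0.10) and 0.21 (SE 0.10). In both comparisons the Hars2 difference was above that of Hars1 in every series, with pulsing alone by as little as 0.006.

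A further 16 probe sets above the filter measured 13 of the genes a second time. With blebbistatin in pulsed cells, 15 of 16 had the sign of the brightest probe set and 15 of 16 were positive, with a median of 0.23. The second probe sets of Iars1 and Mars1 gave 0.39 each and that of Hars2 gave 0.35. The 3 further probe sets of Cars1, the cysteinyl enzyme, gave 0.35 to 0.41, above the 0.24 of its brightest one. For Tars2 the second probe set gave 0.12 against 0.43, and for Hars1 the second was within 0.01 of 0 against 0.09. With pulsing alone, 12 of 16 had the sign of the brightest probe set.

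The ATF4 motif was in the windows of Aars1, Cars1, Iars1, Mars1, Nars1, Tars1 and Yars1, 41.2% of the cytosolic windows. It was in 3.98% of 33469 RefSeq promoter windows of the same length and in 2% of 11081 windows of genes tested on the array. Counted from the start of the gene, Aars1 held matches beginning at base -112 and at base 10. The match of Iars1 begins at base -24, that of Mars1 at -17, that of Nars1 at -14 and that of Tars1 at -27. Those of Cars1 and Yars1 begin at bases 18 and 39. With blebbistatin in pulsed cells, the 7 cytosolic genes with a match had changes from 0.12 to 0.47 with a median of 0.30, and 4 had an unadjusted p under 0.05. The 10 cytosolic genes without one had changes from -0.01 to 0.31 with a median of 0.09, and 1 had an unadjusted p under 0.05. Both counts are of higher genes and stand against 6.23% of all tested. With pulsing alone the medians were -0.02 and -0.06. A match is a description of letters, not a site in use, and the difference between the 2 sets was not tested. Mitochondrial Yars2 and Vars2 had changes of 0.47 and 0.43 and no match in the sequences shown above or in the rest of their windows.

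**Figure D5:**
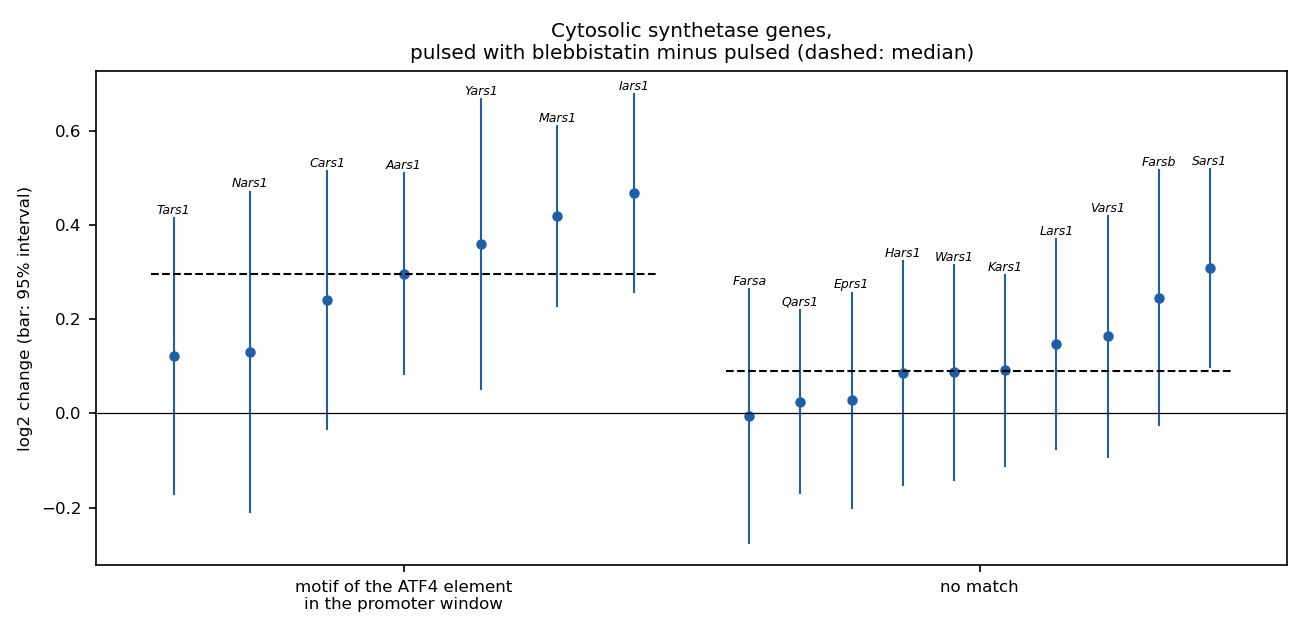
Fitted log2 change with blebbistatin in pulsed cells (points) with 95% intervals (bars) for 17 cytosolic synthetase genes, by the presence of TGATGNAA in the promoter window, with the median of each set dashed. Gars1 and Rars1 have no window and are not drawn. The set with a match has a median of 0.30 and the set without one a median of 0.09, and their ranges overlap.

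Other motifs were searched the same way on both strands, and no matches of different motifs overlapped. The ETS motif CCGGAAG, bound by the GABP factor among others, was in 9 of 17 cytosolic and 5 of 13 mitochondrial windows, against 16.2% of array gene windows. The matches of Hars1 and Hars2 are the same sites in the bases their windows share, so both classes count them. The E-box CACGTG was in 5 of 17 and 1 of 13, against 9.04%. The NRF1 motif, taken as its palindromic consensus, was in 0 of 17 and 1 of 13 (Wars2), against 1.74%, and the cyclic AMP element TGACGTCA in 0 of 17 and 0 of 13, against 3.09%.

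The remaining genes of the pathway were read from fixed lists, and none passed limma's adjusted threshold in any of the 3 comparisons. Of 22 ATF4 regulators and further ATF4 targets, 17 had a positive change with blebbistatin in pulsed cells (median 0.13). At an unadjusted p under 0.05, 4 were higher and 1 lower, against 6.23% and 5.60% of all tested. Trib3, a pseudokinase induced by ATF4, gave 8.91, 8.62, 9.00 and 9.55 in pulsed and 9.61, 9.56 and 10.05 in blebbistatin arrays, with no overlap (change 0.69, SE 0.12, limma adjusted p = 0.145). Ddit3, which encodes the stress factor CHOP, gave 9.00, 9.45, 9.77 and 9.37 in pulsed and 10.40, 10.38 and 10.50 in blebbistatin arrays, with no overlap (change 0.82, SE 0.16, limma adjusted p = 0.199). Both stood higher with blebbistatin in every series. Atf4 itself, named here after its values were seen, had a change of 0.17 (SE 0.09). Likewise named after the fact, Asns, which makes asparagine, had 0.10, while Psat1 and Phgdh of serine synthesis had -0.20 and -0.08. With pulsing alone, 18 of the 22 had a negative change (median -0.10). At an unadjusted p under 0.05, 0 were higher and 2 lower, against 7.83% and 1.27% of all tested. These 2 were Chac1 at -0.48 (SE 0.14) and Nupr1 at -0.43 (SE 0.16). Blebbistatin with pulsing against nonpulsed cells gave 3 higher and 3 lower, against 15.8% and 6.80%, with Chac1 at -0.38 and Nupr1 at -0.74. All 4 kinases of eIF2 alpha, the stress sensors upstream of ATF4, had positive changes with blebbistatin in pulsed cells (median 0.17), led by Eif2ak2 at 0.42 (SE 0.14).

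The mitochondrial partners of the synthetases were positive as well. The amidotransferase and Met-tRNA formylation genes were positive in 4 of 4 with blebbistatin in pulsed cells (median 0.21). Qrsl1, a subunit of the enzyme that completes mitochondrial Gln-tRNA, gave 8.10, 8.35, 8.08 and 7.83 in pulsed and 8.77, 8.64 and 8.59 in blebbistatin arrays, with no overlap (change 0.54, SE 0.12, limma adjusted p = 0.258). The 8 mitochondrial translation factors were positive in 8 of 8 (median 0.10), led by the initiation factor Mtif2, which gave 8.65, 8.91, 8.81 and 8.33 in pulsed and 9.14, 9.22 and 9.06 in blebbistatin arrays (change 0.43, SE 0.13). The 10 regulators of mitochondrial biogenesis were positive in 10 of 10 in each comparison, with medians of 0.23 with blebbistatin in pulsed cells and 0.20 with pulsing alone. Tfam, the mitochondrial transcription factor, and Esrra, an estrogen-related receptor, had changes of 0.29 (SE 0.10) and 0.32 (SE 0.11) with blebbistatin. Ppargc1b and Esrrg of the same list had the smallest p with pulsing alone, with changes of 1.03 (SE 0.33) and 0.57 (SE 0.20).

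The cytosolic translation factors were mixed. With blebbistatin in pulsed cells, 10 of 11 initiation factors were positive (median 0.08), led by the eIF2B subunits Eif2b4 at 0.30 (SE 0.10) and Eif2b5 at 0.28 (SE 0.09). Only 2 of 6 elongation factors were positive (median -0.02), which were Eef1a1 and Eef1a2, at 0.15 and 0.31. The trans-editing and deacylation genes, which clear mischarged tRNA, were positive in 4 of 4 with a median of 0.08, led by Prorsd1 at 0.32 (SE 0.16).

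Markers of other cell types were read on the same arrays, and none passed limma's adjusted threshold in any comparison. All 10 cardiomyocyte markers were above the filter, with a median change of 0.01 with blebbistatin in pulsed cells. Their mean log2 signal per array was 12.71 to 12.91 in pulsed, 12.80 to 12.93 in blebbistatin and 12.08 to 12.70 in nonpulsed arrays. Smooth muscle and pericyte markers were negative in 8 of 8 (median -0.70), with array means of 9.24 to 9.60 in pulsed and 8.36 to 8.92 in blebbistatin arrays. Fibroblast markers were negative in 9 of 10 (median -0.28), with array means of 10.46 to 11.93 in pulsed and 10.01 to 11.67 in blebbistatin arrays. Endothelial markers were negative in 5 of 5 (median -0.30; 6.53 to 7.80 and 6.29 to 7.23) and macrophage markers in 7 of 7 (median -0.23; 6.47 to 7.95 and 6.28 to 7.11). The endothelial markers Cdh5, Vwf and Emcn and the macrophage marker Adgre1 were not above the filter or not on the array as single genes.

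With pulsing alone, cardiomyocyte markers were positive in 9 of 10 (median 0.36) and fibroblast markers in 5 of 10 (-0.02). Smooth muscle and pericyte markers were positive in 1 of 8 (-0.17), endothelial in 3 of 5 (0.30) and macrophage in 4 of 7 (0.08). For blebbistatin with pulsing against nonpulsed cells, cardiomyocyte markers were positive in 9 of 10 (0.44) and fibroblast markers in 1 of 10 (-0.28). Positive were also 1 of 8 smooth muscle and pericyte (-0.85), 2 of 5 endothelial (-0.05) and 0 of 7 macrophage markers (-0.42). In such mixed cultures, fewer cells of a type and less RNA per cell cannot be told apart. The difference between 3′ and 5′ control probe sets, a measure of RNA quality, was 0.11 ± 0.04 (SD, n = 4) for GAPDH in pulsed, 0.20 ± 0.02 (n = 3) in blebbistatin and 0.13 ± 0.06 (n = 3) in nonpulsed arrays. For beta-actin it was 0.67 ± 0.05 (n = 4), 0.72 ± 0.04 (n = 3) and 0.59 ± 0.12 (n = 3), and for hexokinase 0.95 ± 0.11 (n = 4), 0.92 ± 0.11 (n = 3) and 0.89 ± 0.03 (n = 3). The part of the marker and RNA quality differences in the synthetase values was not tested.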

How the data were processed

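Total RNA was labelled with biotin and hybridised to Affymetrix rat arrays, per the labels' protocols. The deposited log2 signals are from Affymetrix Expression Console 1.1 and its PLIER method, as listed in the submitters' processing notes. The authors' settings are not given in the labels. The log base is not stated either, and base 2 was assumed. Of 31099 probe sets, 57 controls and the dimmest 25% by mean were left out. Gene symbols came from the platform annotation, where 20826 probe sets have 1 symbol, 436 several and 9780 none. Genes kept their brightest probe set, which left 18393 for testing. limma 3.58.1 in R 4.3.3 fitted group and culture series to all 10 arrays, two-sided. The fitting script was tested on simulated data with planted changes larger than any synthetase change here. That test does not show how well changes of the size reported are found.

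The culture series comes from the sample titles. After removal of group means, arrays of one series correlated between 0.35 and 0.64 (8 pairs, median 0.42), and the series was kept as a block. The 25 pairs that differ in both series and group gave -0.58 to 0.49 (median -0.25). Removal of group means itself pulls these pairs to negative values when pairs of one series are positive. Their negative median is therefore no separate support for the block. Nothing beyond the series tells whether the pooled duplicates were separate animals. The p-values rest on the spread between arrays that is left after group and series are fitted, moderated by limma over all genes.

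The members and lists were chosen with earlier results of these data known. Arrays are given singly for the 5 members with the smallest p in each comparison and their partners for the same amino acid. In each list, genes with the smallest p with blebbistatin in pulsed cells were named. For the ATF4 and mitochondrial biogenesis lists, those with the smallest p with pulsing alone were named too. Alternatives changed the block, the normalization, the filter, the probe set rule, the prior and the arrays left out.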

Additional observations from a re-analysis of the deposited data

Results flagged for a closer look

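In the group of 4 pulsed arrays, 2 synthetase genes had one array far from the other 3. Tars1, the cytosolic threonyl enzyme, stood at 9.60 in the pulsed array of series 1, below its other pulsed values of 9.86 to 9.91. Vars1, the cytosolic valyl enzyme, stood at 8.56 in the pulsed array of series 2, below its other pulsed values of 8.74 to 8.78. The gap was judged by Dixon's 95% critical value, which chance passes in about 1 of 20 groups. Among all genes tested 4.94% passed it, and among the 33 synthetase genes 6.06%. The nonpulsed and blebbistatin groups, with 3 arrays each, were not examined this way.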

How the results depend on the processing

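With blebbistatin in pulsed cells, 3 genes of the whole array were called. This count was 1 without the culture series as a block (no replicate block), 7 with it as a random block, 0 with the fit limited to both groups compared, 0 without a filter, 6 with the dimmest 50% left out and 8 with a trended prior. It was 30, 0, 0 and 1 without culture series 1, 2, 3 and 4, and 0 to 30 when single arrays were left out. Against nonpulsed cells, the 63 genes called became 30 without the block, 1020 with the random block, 2 with both groups alone, 1 without a filter and 163 with the trended prior. They became 0, 0 and 8 without series 2, 3 and 4, and 0 to 46 without single arrays.

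The count of synthetase genes called was 0 in each comparison, and it became 3 with the random block and 1 (Iars1, limma adjusted p = 0.0495) with the trended prior, both for blebbistatin with pulsing against nonpulsed cells. In that comparison 9 were higher at an unadjusted p under 0.05, against 15.8% of all tested. There were 15 with the random block, against 18.8%, and 5 under median centring, against 10.7%. For blebbistatin in pulsed cells this count, 10 against 6.23% of all tested, became 4 without series 3 (3.69%) and 6 without series 4 (4.13%). It was 5 to 14 without single arrays, where the share of all tested was 3.44% to 9.84%. For pulsing it was 0 in either direction. Without series 1, 0 were higher, against 3.45% of all tested, and 1 was lower. Without series 4, 1 was higher, against 8.47%, and 0 were lower. Without single arrays, 0 to 1 passed, counting both directions. Over 23 alternatives, the sign of the change was kept by 27 of 33 genes for blebbistatin in pulsed cells, 21 for blebbistatin against nonpulsed cells and 16 for pulsing. The cause of these shifts was not tested. The number of arrays, 10, with 2 series that hold all groups, limits the precision, and blebbistatin was not applied to nonpulsed cells.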
